A study of Homo sapiens with 8 samples.

Results

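The N6-methyladenosine (m6A) peaks described here are those of the control cells whose summit, the base with the highest coverage, lay in the 3′ untranslated region (3′UTR) of a basic protein-coding transcript of GENCODE release 44 lifted to GRCh37, with the 3′UTR taken before coding sequence (CDS) where transcripts differed. All peaks deposited for the control were used without a filter on enrichment or q value, and 437 of 2299 peaks met the rule (19%, 95% Wilson interval 17.5% to 20.7%). They lay on 24 chromosomes in 419 genes, of which 403 held 1 peak, 15 held 2 and PTPA held 4. The X and Y copies of CD99 were counted as separate genes.

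In the study, methylated RNA immunoprecipitation sequencing (MeRIP-seq) had been performed with MIAPaCa-2, an established human pancreatic cancer cell line, carrying an shRNA-Control or an shRNA against METTL3 (METTL3-KD), the catalytic subunit of the m6A methyltransferase. Total RNA was fragmented, a small part was kept as input and the rest was precipitated with an anti-m6A antibody, which gave a control m6A, a control input, a METTL3-KD m6A and a METTL3-KD input group. Each group held 1 library on 2 sequencer lanes, the lanes were treated as 1 sample, and no difference between conditions therefore has a replicate check. Both conditions were made from the same line and differ by the shRNA, and no other treatment is stated.

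m6A is placed on nascent mRNA by the METTL3 and METTL14 methyltransferase complex at adenosines within the DRACH consensus, and it is known to be concentrated around stop codons and in long last exons. In the 3′UTR it can be bound by proteins such as the YTHDF family and IGF2BP2, which act on mRNA decay, stability and translation. The 3′UTR also holds microRNA and RNA-binding protein sites, so its length and sequence differ widely between gene classes.

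Few distinct molecules stood behind these peaks. After removal of duplicates the control lists rested on 7920 distinct read positions in the m6A library (of 2242358 reads) and 9291 in the input (of 2880835 reads), whereas in METTL3-KD cells there were 4508 in the m6A library and 52141 in the input. The counts of input reads per gene summed to 1609215 and 1628753 in the control lanes and to 906240 and 926765 in the METTL3-KD lanes. All intervals below cover counting error only, as these libraries had no molecular identifiers that would tell molecules from copies. METTL3 itself had 0 reads in all input lanes, so the labels could not be checked on the targeted gene. Of the epithelial markers KRT8 and KRT18 were abundant in the control input (10850 and 3535 reads), KRT19 had 1 read, and EPCAM and CDH1 had 0 reads, while the mesenchymal marker VIM had 8978 reads and the leukocyte and fibroblast markers PTPRC and COL1A1 had 0 reads.

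The following 25-nt stretches surround the DRACH adenosine nearest to the summit in the 3′UTR peaks with the highest coverage, with DRACH in capitals (a first base A, G or T, a second base A or G, then A and C, and a last base A, C or T). They were read from the GRCh37 genome on the strand of the host gene, and coordinates are those of the stretch. CMTM6 and CFL2, also among the 12 peaks with the highest coverage, held no DRACH within 50 nt of the summit. The marked PLRG1 adenosine lay 37 nt before a summit that is 7 nt from the stop codon, so its stretch lies ahead of the 3′UTR.
PLRG1 (chr4:155457855-155457879, minus strand): agtcagctggAAACCagaaattatc
SIK3 (chr11:116716130-116716154, minus strand): ccaaggaaatAAACAggaaggaaat
NEDD8 (chr14:24687306-24687330, minus strand): ggagtgagaaTGACAgcatggcgat
HNRNPC (chr14:21679109-21679133, minus strand): ctttatgactTAACAataaaaagga
S100A4 (chr1:153516132-153516156, minus strand): tggctccttcAGACAcgtgcttgat
ITGB1 (chr10:33190001-33190025, minus strand): tttgcctgttAGACAtgactgatga
IFITM3 (chr11:319876-319900, minus strand): ggcatcctcaTGACCattctgctca
MARS1 (chr12:57910049-57910073, plus strand): gcagttgtagAGACTgttacaacag
CNIH1 (chr14:54894518-54894542, minus strand): tgagctcttaGAACAacacacagaa
NT5C (chr17:73126379-73126403, minus strand): ggctgtccctGGACCctggctggca
None of these 10 stretches carried GGACT, the form of DRACH nearest to the PLK1 summit, and NT5C carried the related GGACC.

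A second set shows the only 3′UTR peak with an overlapping METTL3-KD peak (FAM83G), the gene with 4 peaks (PTPA, its peak at 789 nt) and the 5 genes displayed by the study.
FAM83G (chr17:18873101-18873125, minus strand): acatgcttttAAACAattggaggag
PTPA (chr9:131910535-131910559, plus strand): tgtctttccaGAACTttccctggca
PLK1 (chr16:23701392-23701416, plus strand): cctcccctccGGACTggtgccctcc
ETS1 (chr11:128329150-128329174, minus strand): taaatttgttGAACTcttacctaca
CYLD (chr16:50832454-50832478, plus strand): agggatcctgGAACCaaacccctgc
PPP2R5D (chr6:42980021-42980045, plus strand): ggttgggcttGGACCgatgtcccca
KBTBD2 (chr7:32908498-32908522, minus strand): caactgcactTAACActaatgtccg
The 5 displayed genes carried 5 different core motifs, and the capitals mark a match of letters and not a measured methylated base.

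A last set shows a pair of summits next to the stop codon (MED6, STMN1) and the pair farthest from it (KLC1, TNRC6B). The marked MED6 adenosine lay 7 nt before a summit that is 2 nt from the stop codon, so it lies ahead of the 3′UTR.
MED6 (chr14:71051602-71051626, minus strand): agaaactgtaAAACCtgaggagaag
STMN1 (chr1:26227482-26227506, minus strand): tttgttctgaGAACTgactttctcc
KLC1 (chr14:104179931-104179955, plus strand): ctcacacaccAGACTctggaaatgc
TNRC6B (chr22:40729546-40729570, plus strand): accccttgagTAACTcagtatcatt

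The 3′UTR peaks were spread from the stop codon to the end of the transcript, with the most summits per nucleotide close to the stop codon. Their median distance from the stop codon was 630 nt (range 2 to 12371 nt) along the spliced transcript, where 1 is the first base after the stop codon. The median relative position, from 0 at the stop codon to 1 at the transcript end, was 0.378, and 263 summits (60.2%, interval 55.5% to 64.7%) lay before the middle of their 3′UTR. Almost every summit lay in the last exon (433 peaks, 99.1%).

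Within 200 nt of the stop codon lay 110 summits (25.2%, interval 21.3% to 29.4%), whereas evenly spread summits in the same 3′UTRs would put 19.1% there. In the first 50 nt lay 35 summits (8.01%, interval 5.81% to 10.9%) against 5.08% of 3′UTR positions. The next 50 nt held 5.95% (4.09% to 8.57%) against 4.95%. From 101 to 200 nt there were 49 summits (11.2%, 8.59% to 14.5%) against 9.01%. Only in the first 50 nt did the interval lie above the share of positions. Beyond 2000 nt the order was the opposite, with 74 summits (16.9%) against 21.4% of positions. When each 3′UTR was cut into 10 equal parts, the counts were 63, 65, 49, 53, 33, 47, 35, 31, 36 and 25 from the stop codon to the end.

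**Figure D1:**
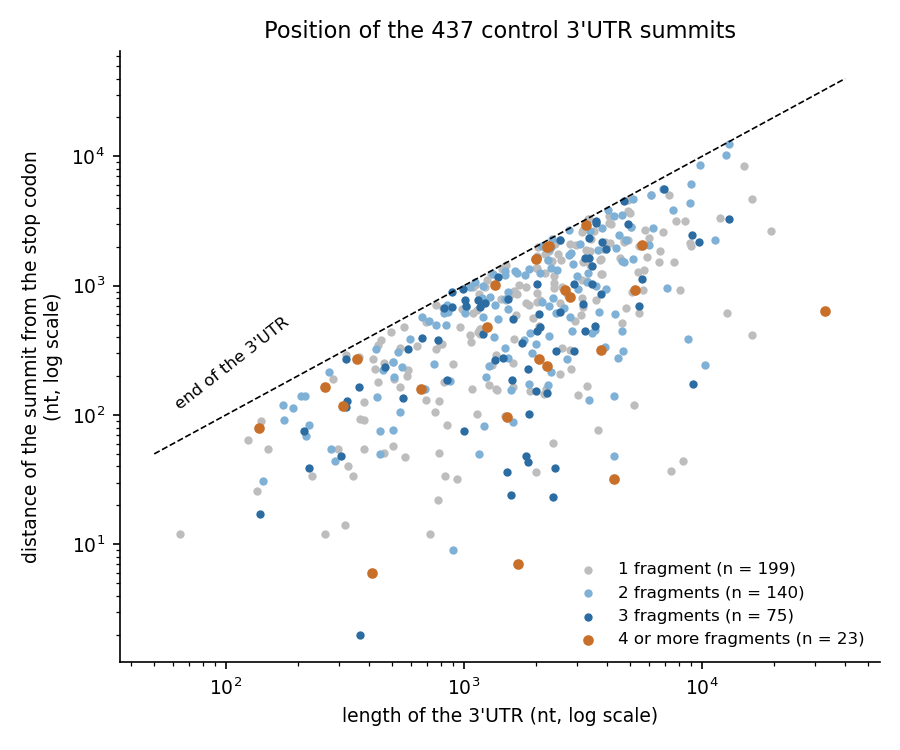
Each point is 1 of the 437 3′UTR summits, with the length of its 3′UTR on the x axis and its distance from the stop codon on the y axis (both nt, log scale), coloured by the number of fragments at the summit, and the dashed line marks the transcript end. Summits lay from 2 to 12371 nt, and peaks of 1, 2 and 3 fragments were intermixed over most of this range.

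Position was compared between coverage classes. The median distances from the stop codon were 682, 647.5 and 478.5 nt for peaks of 1, 2 and 3 or more fragments, and the median relative positions were 0.381, 0.462 and 0.318. Summits within 200 nt of the stop codon made up 25.6% of the peaks of 1 fragment (interval 20.1% to 32.1%), 20.7% of those of 2 fragments (14.8% to 28.2%) and 30.6% of those of 3 or more (22.4% to 40.3%), with overlapping intervals. Between length classes of the 3′UTR the median relative position ranged from 0.327 over 4000 nt (88 peaks) to 0.427 between 500 and 1000 nt (58 peaks), and it was 0.372 up to 500 nt (57 peaks). On the other side of the stop codon, 94 summits of control CDS peaks lay in the last 200 nt of the coding sequence. Host 3′UTRs that are short reach only the first bins, so the number of host 3′UTRs reaching a bin fell from 426 in the first 200 nt to 222 between 1801 and 2000 nt. Per 100 host 3′UTRs reaching the bin there were 25.8 summits in the first and 15.4 in the second 200 nt. In the last 200 nt of the CDS there were 13.1 summits per 100 host coding sequences. Parts were counted once per peak and only where they held a peak, so short parts could place their summit only next to the stop codon. The fall with distance is therefore partly set by this selection, and the rates of 3′UTR and CDS are not directly comparable.

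**Figure D2:**
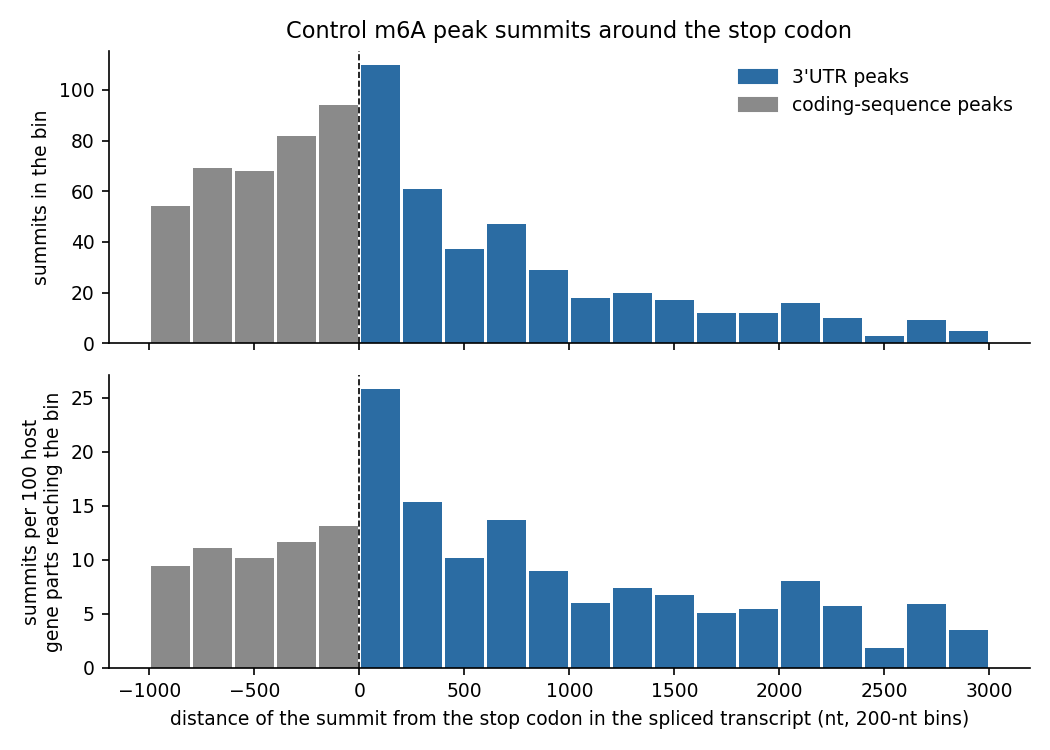
Control summits in 200-nt bins around the stop codon (dashed line, x axis in nt of spliced transcript), as counts in the upper panel and per 100 host gene parts that reach the bin in the lower panel, with 3′UTR peaks in blue and CDS peaks in grey. Only parts that held a peak were counted. The first 200 nt of the 3′UTR held 110 summits and the last 200 nt of the CDS 94.

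The summits nearest to the stop codon, among peaks of at least 2 fragments, were those of MED6, a Mediator subunit (2 nt), NEDD8, a ubiquitin-like modifier (6 nt), PLRG1, a pre-mRNA splicing factor (7 nt), and STMN1, a microtubule-destabilizing protein (9 nt). These peaks extended into the coding sequence, since each spanned about 50 bases on either side of its summit. MED6 had 0 reads in all 4 input lanes although its peak had 3 fragments. NEDD8 had 0 reads in both control lanes and 13 and 19 after METTL3 knockdown, and STMN1 had 0 in both control lanes and 146 in each METTL3-KD lane. The 4 farthest summits were in KLC1, a kinesin light chain (12371 nt), TNRC6B, an Argonaute partner in microRNA silencing (10301 nt), ZNF264, a zinc finger gene (8527 nt), and MRPL42, a mitochondrial ribosomal protein (8480 nt). Of these, only KLC1 had control input reads (271 and 289 in the lanes). The MRPL42 summit, of 1 fragment, also lay in an exon of RN7SL737P, a copy of the 7SL RNA gene.

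Each peak rested on few fragments. The pileup, the number of fragments at the summit after duplicates were removed, was 1 in 199 peaks (45.5%), 2 in 140 (32.0%), 3 in 75 (17.2%), 4 in 18, 5 in 4 and 7 in 1 peak. Peak length followed from this, with a median of 101 bp (range 100 to 409 bp) and only 11 peaks longer than 150 bp, since fragments were extended to 100 bp. All 199 peaks of 1 fragment had a fold enrichment of 1.999, just under 2. The −log10 q values ranged from 2.89 to 25.7 (median 6.42).

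The 3′UTR peaks had more fragments than intron peaks and about as many as CDS peaks. At least 2 fragments stood under 54.5% of 3′UTR peaks (interval 49.8% to 59.1%), 53.9% of CDS peaks (50.2% to 57.5%), 54.0% of 5′UTR peaks (44.3% to 63.4%) and 42.6% of intron peaks (39.0% to 46.4%). At least 3 fragments were present in 22.4% of 3′UTR peaks (18.8% to 26.6%), 19.2% of CDS peaks (16.5% to 22.3%) and 13.4% of intron peaks (11% to 16.2%). In the METTL3-KD list 153 of 1087 peaks lay in 3′UTRs (14.1%, interval 12.1% to 16.3%), and 27.5% of these had at least 2 fragments (21% to 35%), while 9.15% had at least 4 (5.53% to 14.8%) against 5.26% in the control (3.53% to 7.77%).

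**Figure D3:**
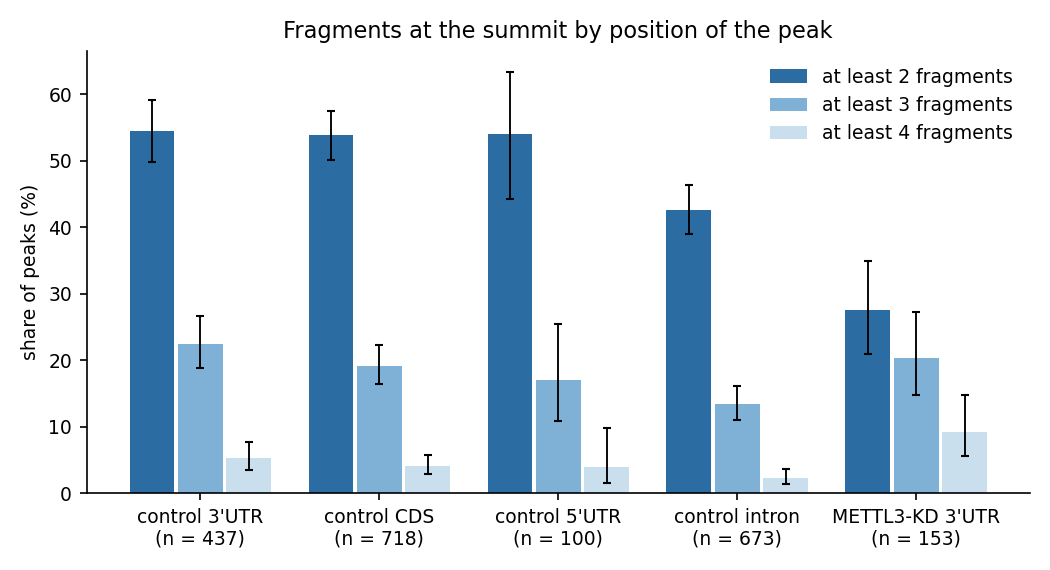
Share of peaks (y axis, %) with at least 2, 3 or 4 fragments at the summit, by position of the summit, with 95% Wilson intervals as error bars and the number of peaks under each group. The share with at least 2 fragments was 54.5% in control 3′UTRs and 42.6% in control introns.

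The 12 peaks with the highest pileup lay in genes of varied function. PLRG1 had 7 fragments. SIK3, a salt-inducible kinase, NEDD8, CMTM6, a membrane protein that stabilizes PD-L1, and HNRNPC, a nuclear RNA-binding protein, had 5 each, and the CMTM6 summit also lay in an exon of CMTM7. S100A4, a calcium-binding protein, ITGB1, the integrin beta 1 chain, IFITM3, an interferon-induced antiviral protein, MARS1, the methionyl-tRNA synthetase, CFL2, an actin-severing cofilin, CNIH1, an ER export receptor, and NT5C, a nucleotidase, had 4 each. Their distances from the stop codon ranged from 6 nt in NEDD8 to 2014 nt in MARS1. The MARS1 summit lay in exon 18 of 19 of a transcript of 2583 nt, of which 2272 nt are annotated as 3′UTR. Its distance and its place in a 3′UTR therefore depend on this transcript.

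Only HNRNPC (217 and 208 reads) and ITGB1 (267 and 269 reads) of these host genes had reads in the control input lanes, and the 10 others had 0 in both. In the METTL3-KD input lanes these 12 had between 7 and 4 reads in NT5C and 711 and 724 in ITGB1. The 7 named peaks of 4 fragments are part of 18 with that pileup, which were ordered by chromosome where tied. Over all 23 host genes of peaks with at least 4 fragments, 18 had 0 control reads (78.3%), close to the 83.6% over all counted host genes, and 1, GMPPB, had 0 METTL3-KD reads.

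A local excess of input was visible in few peaks. The fold column divides the pileup by the larger of a genome-wide and a local input background, with a pseudocount, so peaks of one pileup share the same highest fold unless input fragments lie nearby. Of the 437 peaks, 419 stood at the highest fold of their pileup within 0.0005, and 18 (4.12%, interval 2.62% to 6.42%) stood below it. The corresponding share of CDS peaks was 3.20% (2.14% to 4.76%). The host genes of all 18 had control input reads, against 53 of 415 of the other peaks in counted genes (12.8%, interval 9.90% to 16.3%). The local background and the gene reads come from the same control input. This difference was therefore largely set by how the fold is computed and is not a separate result. The 18 peaks were found and named after their values were seen.

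The 18 included both peaks of HNRNPC and 3 of the 5 genes displayed by the study, PLK1, ETS1 and PPP2R5D. Among the 75 peaks of 3 fragments, the 61 at the highest fold had a −log10 q of 9.92 and the 14 below it had 3.32 to 5.20. PLK1, a mitotic kinase, stood at 5.20 together with CACUL1, RPL14, TMBIM6, TOMM22 and TSPAN3. ETS1, a transcription factor, stood at 4.01 with the second HNRNPC peak, RPS3A, RSRP1 and SGK1, and the lowest value of 3.32 was that of CDC27, PANK3 and TTL. PPP2R5D, a PP2A regulatory subunit, was the only peak of 2 fragments below the highest fold. Its −log10 q was 2.89, against 6.42 in the other 139 peaks of 2 fragments. MEA1 has exon sequence at the same base and peaks carry no strand, so this peak could not be assigned to PPP2R5D alone. CYLD, a deubiquitinase, and KBTBD2, a CUL3 adaptor, had 1 fragment each and a −log10 q of 2.93, the value of every peak of 1 fragment.

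The sequence around the 3′UTR summits held DRACH as often as other 3′UTR sequence did. Within 50 nt of the summit in either direction on the host strand, DRACH occurred in 366 of 437 peaks (83.8%, interval 80.0% to 86.9%), against 84.4% of 327636 windows of the same length (101 nt) tiled over all 3′UTRs and 83.6% of those tiled over the host 3′UTRs (82.9% to 84.2%). On the strand opposite the host gene the shares were 84.7% of peaks (81.0% to 87.7%) and 87.2% of all windows. Of the CDS peaks, 86.2% held DRACH (83.5% to 88.5%). Per window there were 1.77 DRACH matches in 3′UTR peaks and 1.82 in all 3′UTR windows.

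GGACT, which is 1 form of DRACH and was counted within it, occurred in 31 peaks (7.09%, interval 5.04% to 9.89%), in 7.66% of all 3′UTR windows and in 9.89% of CDS peaks (7.91% to 12.3%). On the opposite strand it occurred in 7.55% of peaks (5.43% to 10.4%) and 7.13% of all windows. The DRACH share was 84.9% in peaks of 1 fragment, 81.4% in peaks of 2 and 84.7% in peaks of 3 or more, and the intervals overlapped. A DRACH adenosine lay within 10 nt of the summit in 31.8% of peaks (27.6% to 36.3%) and of the centre in 33.8% of all windows. The window of the Y copy of CD99 could not be searched because the reference is masked there, and it was counted as holding no match. These shares describe letters in the windows and not methylated sites.

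**Figure D4:**
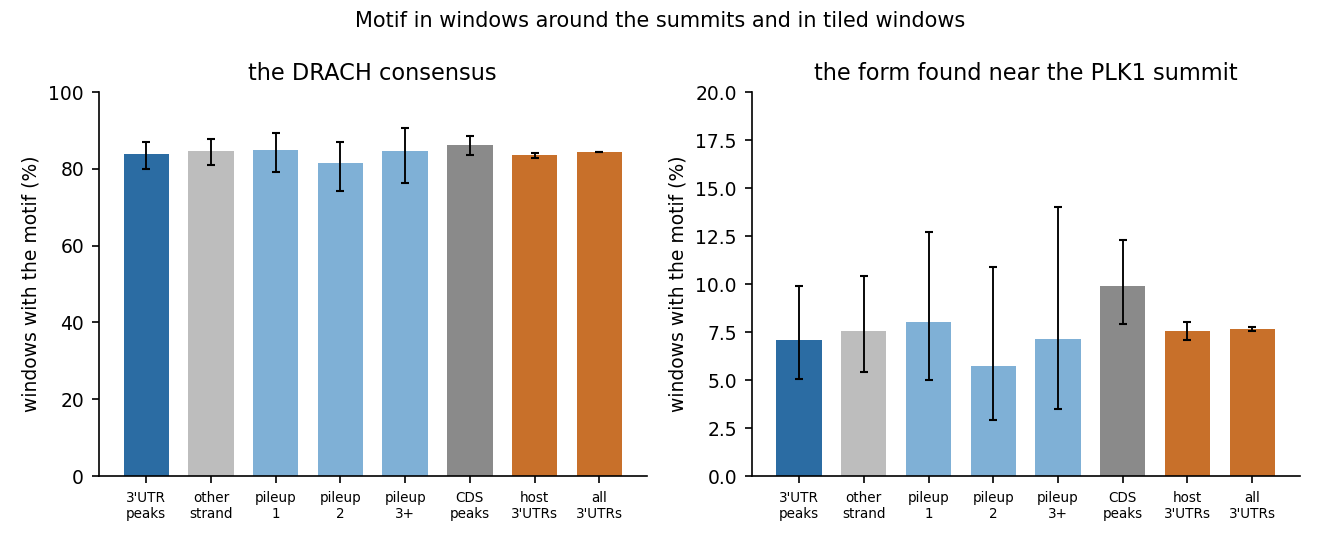
Share of windows (y axis, %) holding DRACH (left) or GGACT, the form nearest to the PLK1 summit (right), for 3′UTR peaks, their opposite strand, their pileup classes and CDS peaks, and for windows tiled over host and all 3′UTRs, with 95% Wilson intervals as error bars. DRACH stood at 83.8% of 3′UTR peaks and 84.4% of all 3′UTR windows.

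The windows around the summits were richer in G and C than other 3′UTR sequence. Their median GC content was 46.5%, against 41.6% in windows tiled over the host 3′UTRs and 40.6% over all 3′UTRs, and CDS peaks stood at 53.5%. Summits within 200 nt of the stop codon had a median of 51.5% and those farther away 45.5%, so the GC content moved with the distance from the stop codon. Its part in the position of the peaks was not tested.

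The presence of a 3′UTR peak in a gene went with the length of the 3′UTR and with the reads of the gene in the METTL3-KD input, a library that had no part in calling these peaks. Of 19281 protein-coding genes with a 3′UTR, 419 (2.17%, interval 1.98% to 2.39%) held a peak. The share was 1.05% of genes with a 3′UTR of up to 500 nt (0.816% to 1.34%) and 4.09% of genes with more than 4000 nt (3.34% to 5.02%). Counted per sequence the order turned, with 44.7 peaks per 1000000 nt in 3′UTRs of up to 500 nt and 6.68 in those over 4000 nt.

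By METTL3-KD input reads, a peak was present in 0.594% of genes with 0 reads (0.468% to 0.754%), 2.98% with 1 to 50 reads (2.48% to 3.57%), 5.41% with 51 to 200 reads (4.65% to 6.28%) and 8.90% with more than 200 reads (7.15% to 11%). CDS peaks showed the same order, from 0.692% to 16.8% of genes. With both properties together the share ran from 0.203% of genes with short 3′UTRs and 0 reads (8 of 3946 genes) to 13.8% of genes with more than 4000 nt and more than 200 reads (13 of 94 genes, interval 8.26% to 22.2%). In each of the 5 length classes the share was higher in every higher read class, although the intervals of some neighbouring classes overlapped.

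**Figure D5:**
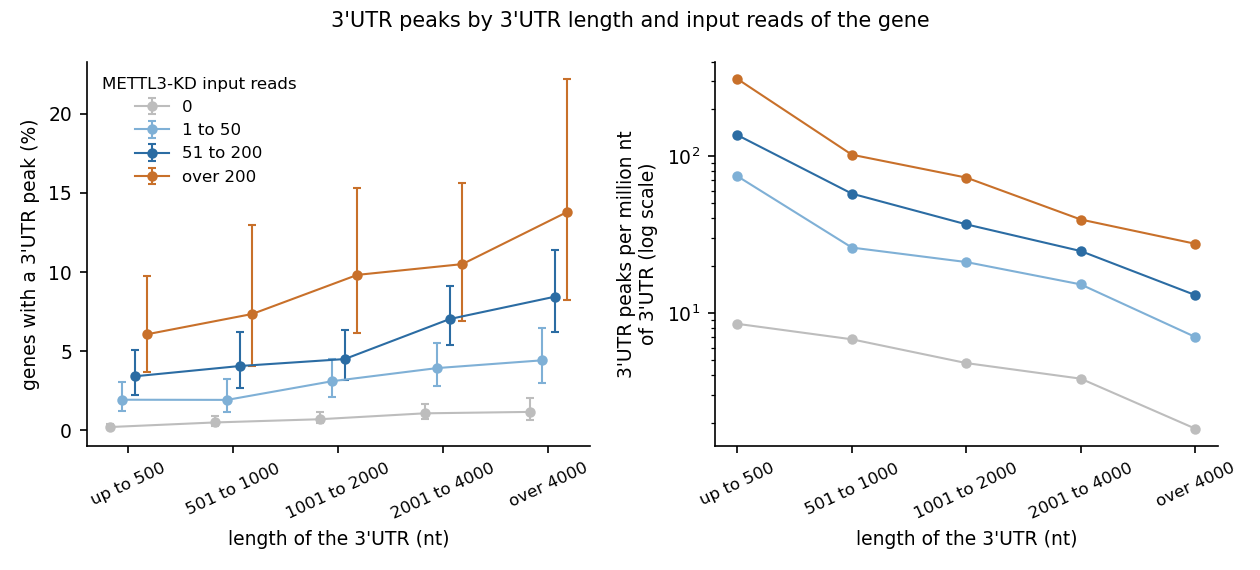
Left, share of protein-coding genes with a 3′UTR peak (y axis, %) by length of the 3′UTR (x axis, nt) and reads in the METTL3-KD input (colours), with 95% Wilson intervals as error bars. Right, 3′UTR peaks per 1000000 nt of 3′UTR (log scale) for the same classes. The highest share was 13.8%, in genes with over 4000 nt and over 200 reads.

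Most host genes had no read in the input of the cells in which their peak was called. Of 415 host genes found in the count table, 347 (83.6%, interval 79.7% to 86.9%) had 0 control input reads, against 89.6% of all protein-coding genes (89.1% to 90.0%) and 77.4% of genes with a CDS peak (74.0% to 80.5%). In the METTL3-KD input only 67 host genes (16.1%, interval 12.9% to 20%) had 0 reads, against 59.8% of all protein-coding genes. Both inputs were at 0 in 64 host genes. The share with 0 control reads was 87.3% for peaks of 1 fragment (81.9% to 91.3%), 87.7% for 2 fragments (81.2% to 92.2%), 68.0% for 3 fragments (56.8% to 77.5%) and 78.3% for 4 or more (58.1% to 90.3%). The same control input was the background when the peaks were called, so these shares are not independent of the pileup. Below the highest fold of their pileup stood 0 of 199 peaks of 1 fragment, 1 of 140 of 2 and 14 of 75 of 3. The part of this background in the shares was not tested.

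Where control reads were present they came in steps. Over all genes with at least 10 control reads, the tallest modes of the reads per gene were at 512 and 1042 reads. Of 56 host genes with at least 10 control reads, 20 lay within 15% of the lower and 20 within 15% of the upper mode. The share of all genes near these modes was not computed, so the steps were not shown to be particular to the host genes. PLK1 had 507 and 542 reads in the control lanes, a sum of 2.05 times the lower mode, and ETS1 had 247 and 245, a sum of 0.96 times. The host genes of the 3′UTR peaks with the most control reads were H2AZ2, a histone variant (1179 and 1277), EIF4G1, the scaffold of cap-dependent translation initiation (1158 and 1135), PRKDC, the catalytic subunit of DNA-dependent protein kinase (1085 and 1086), SEPTIN11, a cytoskeletal septin (1071 and 1021), YBX1, a cold shock RNA-binding protein (1043 and 1045), and DYNC1H1, the dynein heavy chain (796 and 866). Per kilobase of transcript they ranged from 114 reads in DYNC1H1 to 701 in YBX1. At the other end, 12 host genes had 1 to 9 control reads, among them BRD2, a bromodomain protein, CCZ1B and GNAI2, an inhibitory G protein subunit, with 1 read each.

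To set methylation against expression, the inputs were compared as the log2 ratio of scaled reads (CPM with TMM scaling of library sizes, prior count 2), METTL3-KD over control, among genes with at least 10 reads. With 1 library per condition the ratios have no test. Of the host genes with a ratio, 12 (3.55%, interval 2.04% to 6.10%) lay under -2, where 7.37% of all genes did, and 289 (85.5%, interval 81.4% to 88.9%) lay above 2, where 79.1% of all genes did. Under total count scaling 23 host genes lay under -2 (6.80%, interval 4.58% to 10%), against 12.7% of all genes. Of the 289 higher host genes, 272 had 0 control reads. The same held for 7383 of the 7859 higher genes among all genes (93.9%, interval 93.4% to 94.4%). The part of the reads and distinct positions of the control input in these counts was not tested. The 12 lower host genes were H2AZ2 (-2.17), KIF2A (-2.30), FOXK1 (-2.52), PLK1 (-3.54), TMEM53 (-8.14), CYLD (-2.85), KIAA1671 (-2.95), PDAP1 (-3.42), ETS1 (-2.61), RSRP1 (-4.55), KBTBD2 (-2.68) and PPP2R5D (-3.0). They hold all 5 genes displayed by the study, which had been chosen on these samples for lower reads and are not independent evidence. In the METTL3-KD lanes PLK1 had 7 and 12 reads, CYLD 9 and 18, ETS1 7 and 10, KBTBD2 1 and 0, and PPP2R5D 0 in both.

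Only 52 host genes reached 10 reads in the control and in the METTL3-KD input. Their median log2 ratio was -0.15, against -0.61 for all 1871 genes with such reads. It stood at -1.52 under total count scaling and at 0.10 under DESeq2 size factors, against -1.98 and -0.36 for all genes. The direction of this median therefore depends on the scaling, which shifts host genes and all genes alike. Of the 52 genes, 8 (15.4%, interval 8.01% to 27.5%) lay under -2 and 7 (13.5%, 6.68% to 25.3%) above 2, against 21.3% and 7.80% of the 1871 genes. Under total count scaling 19 of the 52 lay under -2 and 3 above 2, against 49.4% and 3.37% of the 1871 genes.

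Almost none of the 3′UTR peaks had a counterpart in METTL3-KD cells. 1 of 437 peaks (0.229%, interval 0.0404% to 1.28%) overlapped a METTL3-KD peak by at least 1 bp, where 17 of all 2299 control peaks did (0.739%). It lay in FAM83G, a binding partner of casein kinase 1, 1581 nt from the stop codon, and the 2 lists gave the same interval (chr17:18873041-18873140) with 1 fragment in each. FAM83G had 0 reads in both control input lanes and 13 and 15 after METTL3 knockdown. Because both m6A libraries held few distinct positions, a peak missing from the METTL3-KD list was not shown to be unmethylated there.

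In 11 host genes the METTL3-KD list also held a 3′UTR peak, which is 2.63% of the control and 7.33% of the 150 METTL3-KD host genes. In these genes the summits of the lists lay 138 bp apart in TYSND1, a peroxisomal protease, 136 bp apart in FAM89B and 223 bp apart in FN3KRP, a protein-repair kinase, whose METTL3-KD peaks had 5, 1 and 4 fragments. OSMR, the oncostatin M receptor, held 2 control peaks and 1 METTL3-KD peak 796 bp from the nearer one. KBTBD2 held a METTL3-KD peak 626 bp from its control peak. The summits lay farther apart in EIF4EBP2 (1978 bp), KLC1 (2400 and 10278 bp), SLC38A1 (3766 bp) and MBTPS2 (11297 bp). For PICALM no gap between summits was obtained.

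The 16 genes with several 3′UTR peaks gave 18 pairs of neighbouring summits, with a median gap of 603 bp on the genome (229 to 17858 bp) and 6 gaps within 500 bp. PTPA, an activator of the phosphatase PP2A, held its 4 peaks at 98, 328, 789 and 1292 nt of a 1482 nt 3′UTR, with 1, 2, 2 and 2 fragments. Of these 4 windows only the one at 789 nt held DRACH. PTPA had 0 control input reads and 98 and 95 reads in the lanes after METTL3 knockdown. Other genes with 2 peaks were HNRNPC (5 and 3 fragments at 270 and 606 nt), C1QTNF6 (3 and 3), ITGB1 (4 and 1), STAU1, which binds double-stranded RNA (2 and 2), and DDIT4, a stress-induced inhibitor of mTORC1 signalling (1 and 2).

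The host genes belonged to many functional classes. Lists of gene families and functions placed 131 host genes in at least 1 class, and the share with a 3′UTR peak is read against 2.17% of all protein-coding genes and 4.59% of those with METTL3-KD input reads (348 of 7584, interval 4.14% to 5.08%). The lists were built from gene symbols and are not complete, so that SIK3 is missing from the kinases and KLC1 from the motor genes. Genes of RNA metabolism stood highest among the lists of over 150 genes. Of 292 RNA helicases, splicing and RNA-binding factors, 14 held a 3′UTR peak (4.79%, interval 2.88% to 7.89%), among them HNRNPC, PTBP1, a splicing repressor (2 fragments), PUM2, a Pumilio repressor that binds 3′UTRs (2 fragments), and TNRC6B (2 fragments). This list also had METTL3-KD input reads in 76.0% of its genes, against 39.4% of all protein-coding genes, and the part of input level in the share was not tested. Of 70 genes with an EIF or EEF symbol, 80.0% of which had METTL3-KD input reads, 5 held one (7.14%, interval 3.09% to 15.7%). These were the initiation factor genes EIF3B, EIF4G1 and EIF2S3, and EIF2AK1, a kinase of eIF2, and EIF4EBP2, a repressor that binds eIF4E.

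Transcription factors of other families, which here include KLF and GATA genes, held a 3′UTR peak in 14 of 352 genes (3.98%, interval 2.38% to 6.56%). Among these 14 were ETS1, KLF10 (4 fragments), STAT3 (1 fragment at 61 nt), RUNX1 (1 fragment at 32 nt) and GATA4. Of this list 35.2% had METTL3-KD input reads, and its median 3′UTR was 1464 nt, against 1059 nt over all protein-coding genes. The parts of input level and 3′UTR length in the share were not tested. Genes with the symbols of C2H2 zinc finger families such as ZNF and ZBTB stood at 10 of 580 (1.72%, interval 0.939% to 3.14%). Of 149 chromatin regulators 4 held a 3′UTR peak (2.68%), among them PHF6 and BRD3.

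Ribosomal protein and histone genes have short 3′UTRs. Of 101 cytosolic ribosomal protein genes, with a median 3′UTR of 254 nt in the annotation, 5 held a peak (4.95%, interval 2.13% to 11.1%). Among them were RPS3A (3 fragments at 75 nt), RPL14 (3 fragments at 115 nt) and RPL37, whose summit lay 5015 nt from the stop codon in an annotated 3′UTR of 7242 nt. Ribosomal protein genes have many processed pseudogenes, so their reads are uncertain. None of 61 replication-dependent histone genes, whose median 3′UTR is 57 nt, held a 3′UTR peak (interval up to 5.92%), while 4 held a CDS peak.

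Among signalling and turnover genes, 15 of 467 genes of the ubiquitin system (3.21%, interval 1.96% to 5.23%), 9 of 325 genes of the protein kinase list (2.77%, 1.46% to 5.18%), 5 of 172 phosphatase genes (2.91%, 1.25% to 6.62%) and 11 of 350 small GTPase genes (3.14%, 1.76% to 5.54%) held a 3′UTR peak. The kinase list also holds regulatory subunits such as PRKAR1A, and its members with a peak included PLK1, SGK1, AKT2, PRKAA1, the catalytic subunit of AMPK, and PRKDC. Of 199 genes of the actin, tubulin and motor list 8 held one (4.02%, interval 2.05% to 7.73%), among them CFL2, VCL, DYNC1H1 and KIF2A. Solute carriers (6 of 383, 1.57%), TMEM genes (6 of 237, 2.53%), vesicle genes (9 of 253, 3.56%) and nuclear-encoded mitochondrial genes (6 of 214, 2.80%) had intervals that held 2.17%.

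Classes tied to the question of the study were small, and most of their genes had METTL3-KD input reads (93.9% of the G2/M, 82.8% of the S-phase, 86.7% of the DNA damage and 79.2% of the m6A list). The part of input level in their shares was not tested. Of 66 G2/M and mitotic genes, PLK1, CDC27, a subunit of the anaphase-promoting complex, and BIRC5, which encodes survivin, held a 3′UTR peak (4.55%, interval 1.56% to 12.5%), with 3, 3 and 1 fragments. BIRC5 had 0 reads in both control lanes and 119 and 147 after METTL3 knockdown. CDC27 had 194 and 201 raw reads in the control lanes and 94 and 82 after knockdown. The inputs differ in total reads, and the log2 ratio of CDC27 with TMM scaling was 1.02. In the S-phase list MCM2, a replicative helicase subunit (4 fragments), and UHRF1 (2 fragments) held a 3′UTR peak (2 of 58, 3.45%). Of 45 DNA damage response genes PRKDC held one (2.22%). Of 24 m6A writers, readers and erasers, HNRNPC and the reader YTHDF3 held 3′UTR peaks (8.33%, interval 2.32% to 25.8%). None of 27 pancreatic cancer driver genes held one (interval up to 12.5%), and 4 of them held a CDS peak.

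The assignment of peaks to genes was uncertain for some members. Peaks carry no strand, and 48 summits (11%) lay in exons of more than 1 gene, 21 of them in 3′UTRs of more than 1 gene. In 26 peaks (5.95%) the summit was coding sequence in another transcript of GENCODE. The transcript used for the distance was MANE Select in 395 peaks (90.4%).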

How the data were processed

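Ribosomal reads had been filtered by the authors (Bowtie2), the rest was mapped to hg19 (HISAT2), input reads per gene were counted (featureCounts) and peaks were called (MACS2 2.1.1), both lanes pooled and 1 tag kept per position. The deposited count table holds raw counts for 63568 genes, and annotation release, use of strand and multiple alignments are not given in the sources used here. In the deposited peak lists, pileup is a signal in fragments, fold enrichment is a ratio to the local background, and the −log10 column holds q values. The file headers give a q cut-off of 0.05 and the methods 0.01. Groups came from sample titles, and input columns, whose cell code differs from the titles by 1 character, were matched by cell code, kind and lane.

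Each summit was placed in GENCODE release 44 (GRCh37, the hg19 build) with python 3.11.15 and pysam 0.24.0, on MANE Select where it holds the summit in its 3′UTR. Lane counts were summed and compared as log2 ratios (edgeR 4.0.16, no p-value). Annotation and ratios were tested on simulated data. The simulated counts were drawn from genes well covered in the control input, so ratios of genes without control reads were not covered by that test. Shares carry Wilson intervals. 8 samples gave 4 groups. The members and gene lists were chosen with earlier results of these data known. Genes were named by rule: the 12 highest pileups, overlap with METTL3-KD, 3 or more peaks, the most and fewest control reads, the 4 nearest and farthest summits, displayed genes and up to 6 list members.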

Additional observations from a re-analysis of the deposited data

How the results depend on the processing

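Of 72 recomputed values for 13 results, 59 stayed within the spread used here and 13 moved. The number of 3′UTR peaks was 237 at a q value under 0.001, 238 with a pileup of at least 2 and 23 at a fold of at least 4, and the share of control peaks in 3′UTRs was 21.6% with the first, 21.6% with the second and 26.1% with the third filter. These filters leave fewer peaks by construction. The DRACH share was 61.6% with 25 nt and 96.8% with 100 nt on each side, and the GGACT share was 3.89% and 14.4%, since the window length sets how many letters are searched. Host genes under -2 numbered 23 under total count scaling, and the cause was not tested. METTL3-KD overlap rose to 3 peaks within 100 bp and to 13 by host gene, which are looser criteria. Without either lane the genes under -2 numbered 10 to 10, those above 2 numbered 261 to 264, the share of host genes with 0 control reads was 84.3% to 85.5%, and the median control reads were 0 to 0. With lanes entered as replicates, 11 host genes lay under -2 and 291 above 2, both with and without the replicate block, whose pairing comes from the lane numbers. Depth limits all results, since 199 peaks rest on 1 fragment and most host genes have no control read.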
